A study of Mus musculus with 15 samples.

Results

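Mouse pancreatic cancer cells were compared after 24 h in medium conditioned by heterozygous (HT) or by wild-type (WT) pancreatic stellate cells, on 3 arrays each. These 6 arrays are the ones titled for the HT and the WT medium, of 15 in the series. Spots that were not controls were taken, and outlier spots and genes that missed the signal filter were then left out, as given below. The stellate cells had been isolated from WT or HT mice and grown for 2 weeks until activated. The labels used here name neither the heterozygous locus nor the cancer cell line, so no targeted gene could be checked. The labels describe all cancer cell samples alike except for the medium. A further 3 arrays of cancer cells in control medium served to place the levels and to estimate the spread. Whether replicates came from separate cultures or batches of medium is not in the labels, so the p-values speak only to the scatter among these samples, part or all of which may be technical.

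Pancreatic stellate cells are fibroblast-like cells that, once activated, secrete matrix proteins, proteases, cytokines and growth factors. Medium conditioned by them carries these products to cancer cells without contact between the cells. In epithelial cells such signals are read mainly through receptor tyrosine kinases and the MAPK cascade, which switches on immediate early genes such as Egr1, through NF-kappaB, which drives chemokines and adhesion molecules, and through STAT3 and TGF-beta receptors.

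The array reports each gene through 60-base probes, of which 2 are shown because the comparison turns on the first and the second marks a gene that separated both stellate media from control medium. The Krt25 probe lies on the minus strand of chr11:99177867-99178575 (mm9, from the files); 709 bases for a 60-base probe mean that its ends lie apart in the genome. The Muc5ac probe lies on the plus strand of chr7:149004793-149004852. Both are given as deposited, and neither shares a run of more than 13 bases with another probe of the array; for Krt25 that run is in a probe of Krt13, another type I keratin.
Krt25: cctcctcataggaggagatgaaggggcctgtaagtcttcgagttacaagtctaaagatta
Muc5ac: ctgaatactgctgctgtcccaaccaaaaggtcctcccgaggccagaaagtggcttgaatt

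Each level below is the log2 of a probe's signal after subtracting the log2 of the 75th percentile of its array. Each difference is HT minus WT medium on that scale, with its SE from limma and n = 3 arrays per group. On the 6 arrays 55.1% to 59.6% of spots were well above background, and the 75th percentile of the signal was 1228 to 1449. The arrays lay on 2 slides, with HT arrays 1 and 3 and WT array 1 on slide 1 and HT array 2 and WT arrays 2 and 3 on slide 2. The first principal component of the 6 arrays (36.3% of the variance over 19642 genes) separated the slides, with scores of 10.5 to 20.9 on slide 1 and -18.6 to -8.7 on slide 2, and not the media. Pairs of arrays from different media on 1 slide correlated at r = 0.9968 to 0.9976 across genes, and pairs of the same medium on different slides at 0.9962 to 0.9971. In the fit with slide as a term, 912 genes passed for slide itself. All 3 HT arrays lay in row 2 of their slide, as did WT array 3, while WT arrays 1 and 2 lay in row 1. The 2 slides are therefore also given singly for the main lists and for genes whose slides differed by more than 1.5 times. WT array 1 is the only WT array of slide 1 and HT array 2 the only HT array of slide 2. A split between the slides therefore cannot be told apart from the reading of such a single array.

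No gene passed an adjusted p of 0.05 between the media in limma with Benjamini-Hochberg adjustment: 0 of 19687 genes tested, a share of 0%. At an unadjusted p of 0.05, 960 genes (4.88%) were counted, 585 of them higher (2.97%) and 375 lower (1.9%) in HT medium. The smallest adjusted p was 0.120, for Krt25, and the next was 0.823, for Fndc3a. The same fit called 1172 genes (5.95%) between WT medium and control and 1077 (5.47%) between HT medium and control, so it did make calls with 3 arrays per group. Those comparisons share arrays with each other and with the present one.

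The differences were small. Their median was -0.0048 over all genes, 48.1% were above 0, the median size was 0.0745 and the 99th percentile of size 0.569. The 95% interval of the difference lay within 1.5-fold in either direction for 16305 genes (82.8%) and within 2-fold for 19040 (96.7%). For the remaining genes these 6 arrays do not bound the difference that closely. Of the 26 genes with a difference of at least 2-fold either way, 4 were well above background on all 6 arrays, and the other genes had readings near the floor.

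**Figure D1:**
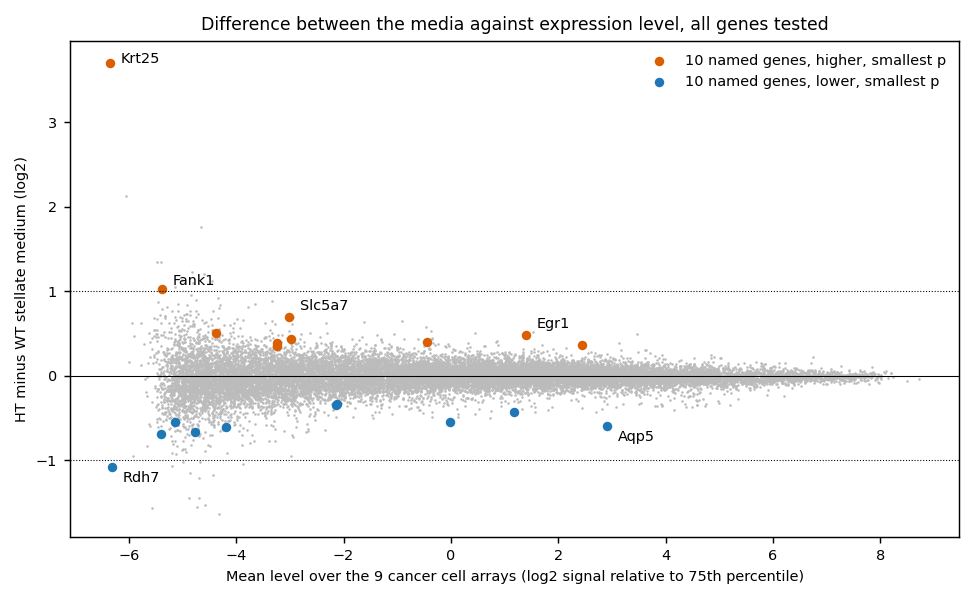
Difference between HT and WT stellate medium (log2, vertical axis) against the mean level over the 9 cancer cell arrays (log2 signal relative to the 75th percentile, horizontal axis) for the 19687 genes tested, with dotted lines at a 2-fold difference either way. Orange and blue points are, in each direction, the 10 genes with the smallest p among those with a gene symbol (clone and predicted names left out) whose 6 arrays did not overlap; Krt25 stands alone at 3.70, and the spread of the other genes widens toward low levels.

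Krt25, a type I keratin of the inner root sheath of the hair follicle, read -4.09, -4.10 and -3.87 on HT arrays 1 to 3, each well above background. On WT arrays 1 to 3 the same probe read -7.72, -7.95 and -7.49, none well above background, and in control medium -7.89, -7.76 and -6.30. The scanner software had put surrogate values in place of the signal on all 3 WT arrays and on control arrays 1 and 2, so those readings are floors. All 3 HT arrays lay above the 6 others, and the groups were far apart. The measured difference was 3.70 ± 0.37 (limma, adjusted p = 0.120), but with WT below background it gives only a bound. On these processed signals Krt25 read at least 2.87-fold higher in HT medium, a value without an error term. That bound sets the mean of the HT arrays against the higher of each WT array's floor and its reading. Normexp background and the series matrix values, given below, came out lower than it, so it holds for this background handling alone.

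Krt25 entered the test only through the HT group, the one group above background. The direction of its difference was therefore set once it was tested, though not by itself the size. All values that follow set the HT arrays against WT readings at background and are no check on its size. The difference in Krt25 was 3.61 when slide was blocked, 3.74 on slide 1 alone and 3.62 on slide 2 alone. It was 3.08 with the row on the slide as a block and 3.47 within row 2, the latter a choice made after seeing the data. With background handled by normexp it was 1.00, and with the authors' series matrix values 1.02. Krt25 passed the threshold in 9 of the 25 alternatives that tested it, with adjusted p from 0.000185 to 1, and without any filter its adjusted p in limma was 0.217. In limma it passed with the 6 compared arrays alone (adjusted p = 0.000843) and without control array 3 (adjusted p = 0.000185). Both settings leave out control array 3, the only cancer cell array outside HT medium without a surrogate value. The SE was 0.13 in each, against 0.37 in the main fit. Outside HT medium only surrogate values then remain, so these p-values do not measure the scatter of signal there.

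Before scaling, the mean signal of the Krt25 spot was 113 to 141 on the HT arrays and 37.4 to 57.8 on the other 12 arrays of the series, where the local background was 28.5 to 42. None of those 12 was well above background, stellate cell arrays included. Of the other cancer cell arrays in row 2, control array 3 read -6.30 and WT array 3 read -7.49. Among the 14 spots around it on the array, 0 stood 4-fold or more above the 6 other cancer cell arrays on HT array 1, 1 did on HT array 2 and 2 on HT array 3, and 0 did so on more than 1 HT array. The part of such local readings in the result was not tested. Over the whole array 2 probes were well above background on all 3 HT arrays and on none of the other 6 cancer cell arrays, against 3 for WT medium and 24 for control. Krt25 was the only one of these with every array 4-fold above all others.

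The keratins that neighbour Krt25 or pair with it in the hair follicle were looked up after its values were seen. Krt26, Krt27 and Krt28, which lie beside it in the type I cluster, and the type II keratins Krt71, Krt72 and Krt73 of the inner root sheath were well above background on 0 of 9 cancer cell arrays. Krt24, another type I keratin, was above background on 9 of 9 and read -3.39, -2.63 and -3.32 in HT against -2.96, -2.57 and -2.43 in WT medium, with overlapping ranges. Only 1 probe reports Krt25, so a second probe could not be read.

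The other 9 leading higher genes, those with the smallest p among genes whose arrays did not overlap and that carry a gene symbol rather than a clone or predicted name, had an adjusted p of 0.823 or 0.876. Non-overlap as such was met by 1307 genes higher (6.64%) and 950 lower (4.83%) in HT medium. None of these genes is called, and their values are descriptions.

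Egr1, an immediate early zinc finger transcription factor, read 1.84, 1.62 and 1.93 on HT arrays 1 to 3 and 1.33, 1.36 and 1.23 on WT arrays 1 to 3. The HT arrays were all higher, the control arrays lowest, at 1.12, 1.04 and 1.07. The difference was 0.48 ± 0.09 (95% interval 0.29 to 0.68), 0.45 when slide was blocked, 0.55 on slide 1 alone and 0.32 on slide 2 alone.

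Slc5a7, the high-affinity choline transporter, read -2.83, -2.60 and -2.76 in HT and -3.31, -3.38 and -3.59 in WT medium, a difference of 0.70 ± 0.13. Control arrays spread from -3.10 to -2.67, and its second tested probe differed by 0.31. Within slide 1 and slide 2 the brighter probe gave 0.52 and 0.89. Col6a1, a chain of collagen VI, read -2.88, -2.81 and -2.79 in HT and -3.23, -3.14 and -3.41 in WT medium (0.43 ± 0.08), with the controls (-2.91 to -2.81) at the level of the HT arrays. Fndc3a, a protein with fibronectin type III domains, read -3.21, -3.16 and -3.13 in HT and -3.57, -3.51 and -3.58 in WT medium (0.38 ± 0.05). Its 2 other tested probes had the opposite sign, -0.04 and -0.22, so the probes of Fndc3a disagreed.

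A pair of higher genes encode enzymes that conjugate small molecules, the sulfotransferase Sult1d1 and the glucuronosyltransferase Ugt2b34. Sult1d1 read -0.59, -0.77 and -0.70 in HT and -0.99, -1.14 and -1.14 in WT medium, against 0.40, 0.46 and 0.38 in control medium (difference 0.40 ± 0.07). Its second probe differed by 0.57. Ugt2b34 read 2.29, 2.11 and 2.27 in HT and 1.89, 1.81 and 1.88 in WT medium, against 3.28, 3.21 and 3.26 in control medium (0.36 ± 0.07). In both genes the HT arrays lay between the WT and the control arrays, without overlap.

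The probes of Sult1d1 and Ugt2b34 lie 666 kb apart on chromosome 5 (mm9), in a region rich in genes of both families. Around Ugt2b34, within 200 kb, Ugt2b36 differed by 0.48 ± 0.12, Tmprss11e by 0.22 ± 0.17 and Ythdc1 by 0.06 ± 0.11. Around Sult1d1, Ugt2b38 differed by 0.36 ± 0.14, Sult1b1 by 0.19 ± 0.11 and Ugt2a1 by 0.03 ± 0.10. These neighbours were chosen after the leading genes were seen, and the Ugt2b genes are close copies whose probes may share transcripts.

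The remaining higher genes were dim. Zfp715, a zinc finger protein, differed by 0.35 ± 0.06, with -3.09 to -3.15 in HT and -3.51 to -3.44 in WT medium. Wdr20rt, a retrotransposed copy of Wdr20 whose signal may include the parent gene, differed by 0.51 ± 0.10. Fank1, a testis protein with fibronectin type III and ankyrin domains, read -5.03, -4.59 and -4.72 in HT and -5.54, -5.65 and -6.24 in WT medium (1.03 ± 0.20), but only 1 of 3 WT arrays was well above background. Slide 1 and slide 2 gave 0.38 and 0.71 for Wdr20rt and 0.66 and 1.35 for Fank1. With normexp the differences were smaller, at 0.24 for Wdr20rt and 0.33 for Fank1.

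Among lower genes, Fbxo2, the substrate-binding subunit of a ubiquitin ligase that recognises glycoproteins, read 1.18, 1.16 and 1.15 in HT and 1.58, 1.5 and 1.72 in WT medium. The 3 HT arrays were nearly equal and lay between the WT arrays and the controls, at 0.75, 0.84 and 0.75. The difference was -0.43 ± 0.07 (95% interval -0.59 to -0.27), -0.42 when slide was blocked, -0.41 on slide 1 alone and -0.45 on slide 2 alone.

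A pair of neighbouring aquaporin genes were among the lower genes, their probes 11.6 kb apart on chromosome 15 (mm9). Aqp5, a water channel of secretory epithelia, read 2.63, 2.96 and 2.48 in HT and 3.33, 3.19 and 3.33 in WT medium, against 2.76, 2.84 and 2.71 in control medium (-0.59 ± 0.12). Its second probe differed by -0.67. Aqp2, the vasopressin-regulated water channel of the kidney, read -2.39, -2.28 and -2.31 in HT and -2.02, -2.01 and -1.92 in WT medium (-0.34 ± 0.06). In both genes all HT arrays lay below all WT arrays. Within slides 1 and 2, Aqp5 gave -0.77 and -0.30 and Aqp2 gave -0.33 and -0.31. Of the other genes tested within 100 kb, Aqp6 differed by 0.00 ± 0.18, Racgap1 by -0.09 ± 0.08 and Faim2 by -0.18 ± 0.29. These, too, were chosen after the leading genes were seen.

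Slc25a48, a mitochondrial carrier, read -0.12, 0.21 and -0.17 in HT and 0.54, 0.37 and 0.64 in WT medium (-0.54 ± 0.12), with controls at -0.67 to -0.45. Dpf1, a subunit of neuronal chromatin remodelling complexes, read -2.16, -2.13 and -2.35 in HT and -1.86, -1.90 and -1.89 in WT medium (-0.33 ± 0.08). Cst8, a cystatin-related protein, was dim and differed by -0.60 ± 0.13, but by -0.22 with normexp and -0.20 with the series matrix values. On slide 1 and slide 2 the values were -0.69 and -0.29 for Slc25a48, -0.40 and -0.24 for Dpf1 and -0.34 and -0.80 for Cst8. Second probes gave -0.76 for Slc25a48 and -0.41 for Cst8. HT arrays of these 3 genes lay on the control side of the WT arrays.

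The other lower genes were close to background. Slc2a4, the insulin-responsive glucose transporter GLUT4, read -4.87, -5.26 and -5.50 in HT, where 1 of 3 arrays was well above background, and -4.51, -4.61 and -4.50 in WT medium (-0.67 ± 0.14). Pnpla3, a lipid droplet protein of the patatin-like phospholipase family, differed by -0.54 ± 0.12, with 2 of 3 HT arrays well above background. With normexp Slc2a4 gave -0.26 and Pnpla3 -0.28. Myo16, an unconventional myosin, was not called and was well above background in WT medium alone, so it entered the test only through that group. By the same kind of bound as for Krt25, without an error term, it read at least 1.45-fold higher in WT medium. With normexp and with the series matrix values it was not tested. Rdh7, a retinol dehydrogenase, was below background on all 6 arrays, so its difference is not given.

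**Figure D2:**
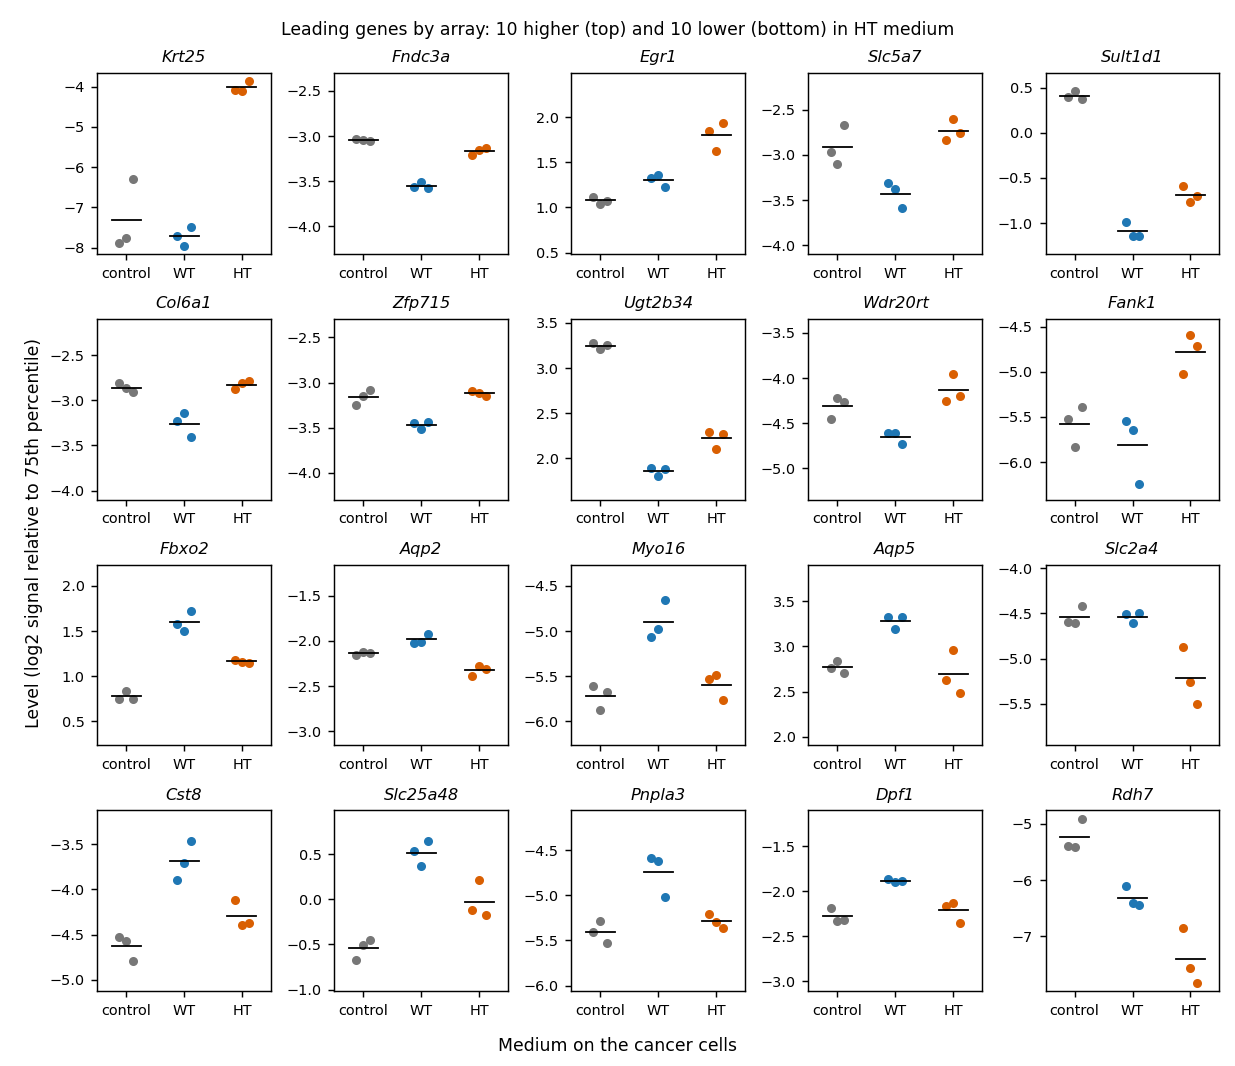
Level of the 20 leading genes on each of the 3 arrays in control medium (grey), WT stellate medium (blue) and HT stellate medium (orange), in log2 signal relative to the 75th percentile, with a line at each group's mean; the vertical axes differ between panels and span at least 2 log2 units. The upper 2 rows hold genes higher and the lower 2 rows genes lower in HT medium; for Sult1d1, Ugt2b34, Fbxo2 and Slc25a48 the HT arrays lie between WT and control, and Krt25 is far above both.

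Beyond single genes, 45 lists were described by counts and medians beside the values over all genes tested, namely a median of -0.0048, 48.1% above 0, and non-overlap in 6.64% higher and 4.83% lower. No member of any list was called. Members of a list share regulators and arrays and are not independent.

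Genes of the NF-kappaB pathway, which carries inflammatory signals, had the highest list median, 0.14: 28 of 35 members were above 0, 12 (34.3%) read higher on all HT than on all WT arrays, and 1 lower. The list median came to 0.07 when slide was blocked, 0.13 on slide 1 alone and 0.09 on slide 2 alone, and 0.11 to 0.15 when any 1 array was left out. On single arrays the median level of the list was 0.33, 0.35 and 0.32 in HT and 0.23, 0.24 and 0.32 in WT medium, so WT array 3 reached the HT range.

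Vcam1, an adhesion molecule for leukocytes, read 1.11, 0.90 and 1.09 in HT and 0.68, 0.50 and 0.71 in WT medium (0.40 ± 0.09), with controls at 0.76 to 0.97. Its second probe differed by 0.36. Ccl20, the ligand of the chemokine receptor CCR6, read -0.10, -0.44 and -0.10 in HT and -0.54, -0.67 and -0.76 in WT medium (0.44 ± 0.10). HT array 2 lay near the WT arrays of Ccl20, and the difference was 0.44 within slide 1 and 0.28 within slide 2. Il1a, the cytokine interleukin-1 alpha, was dim, at -4.79, -5.08 and -4.60 in HT and -5.23, -5.52 and -5.41 in WT medium (0.57 ± 0.14), with 2 of 3 WT arrays well above background. Its difference was 0.18 with normexp and 0.20 with the series matrix values.

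The list of cytokines and chemokines shares Ccl20, Il1a and Cxcl3 with the NF-kappaB list. It had a median of 0.09, with 20 of 28 members above 0, 8 (28.6%) higher without overlap and 0 lower. Its median was 0.07 when slide was blocked, 0.15 on slide 1 alone and 0.01 on slide 2 alone. Cxcl3, a chemokine for neutrophils, read -3.71, -3.53 and -3.34 in HT and -3.74, -3.85 and -3.88 in WT medium (0.30 ± 0.10).

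Immediate early genes and feedback regulators of the MAPK cascade had a median of 0.10, with 29 of 33 members above 0, 9 (27.3%) higher without overlap and 0 lower. Blocking on slide gave a list median of 0.10, and the slides taken singly gave 0.14 (slide 1) and 0.05 (slide 2). Besides Egr1, its relative Egr2 read -4.33, -4.51 and -4.26 in HT and -4.64, -4.79 and -4.99 in WT medium (0.44 ± 0.11). Myc, the proliferation-linked transcription factor, read 3.66, 3.60 and 3.81 in HT and 3.49, 3.38 and 3.34 in WT medium (0.29 ± 0.07), and its second probe differed by 0.27. The list of MYC targets and ribosome biogenesis genes, which includes Myc itself, had a median of -0.04, with 12 of 38 above 0.

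**Figure D3:**
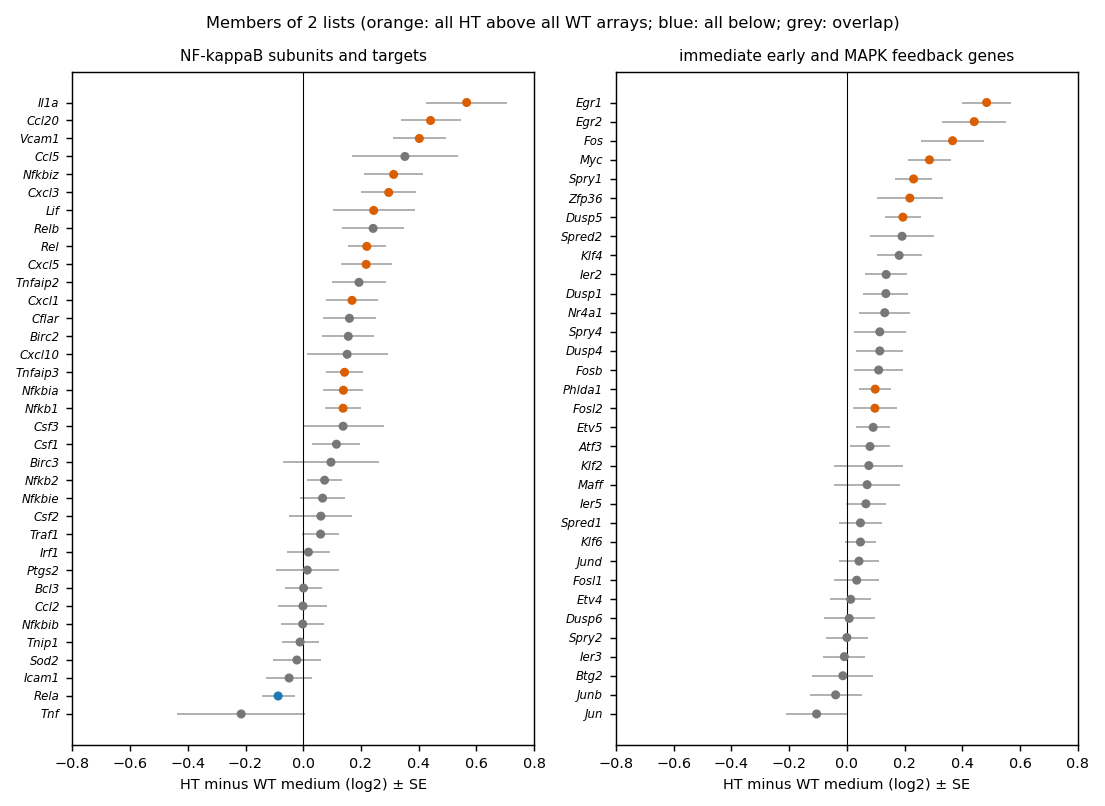
Difference between HT and WT stellate medium (log2 ± SE) for each tested member of the NF-kappaB list (35 genes, left) and of the immediate early and MAPK feedback list (33 genes, right), ordered by size. Orange marks members read higher on all HT than on all WT arrays (12 and 9), blue those read lower (1 and 0) and grey those that overlap; most points lie to the right of 0 by less than 0.5.

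Ligands and receptors of the EGF family had a median of 0.06, with 5 of 18 members higher (27.8%) and 2 lower (11.1%) without overlap. Btc, the EGF receptor ligand betacellulin, read -0.49, -0.39 and -0.25 in HT and -0.63, -0.76 and -0.80 in WT medium (0.35 ± 0.11). Erbb3, a receptor that signals with ERBB2, differed by 0.28 ± 0.12 and Errfi1, an inhibitor of EGF receptors, by 0.16 ± 0.07. A dimmer probe of Erbb3 had the opposite sign, at -0.20, and one of Errfi1 gave 0.05. By slide, Erbb3 gave 0.16 and 0.30 and Errfi1 0.21 and 0.09.

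STAT3 and acute phase genes had a median of 0.01, with 12 of 22 above 0 and 3 higher (13.6%) and 0 lower without overlap. The median was 0.10 within slide 1 and -0.07 within slide 2. Osmr, the oncostatin M receptor, read -1.28, -1.80 and -1.23 in HT and -1.85, -1.85 and -2.01 in WT medium (0.46 ± 0.16). HT array 2 lay next to the WT arrays, and the difference was 0.60 within slide 1 and 0.12 within slide 2. The receptor Lifr (0.19 ± 0.08) and complement C3 (0.36 ± 0.15) showed the same split, with 0.24 and 0.48 within slide 1 and 0.05 and 0.02 within slide 2. Another probe of C3, brighter on these 6 arrays though not over all 15, gave -0.18, and other probes of Lifr gave 0.02 and 0.00.

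TGF-beta targets had a median of 0.07, with 7 of 28 higher (25%) and 1 lower (3.57%) without overlap, and the median was 0.08 within slide 1 and 0.00 within slide 2. Bhlhe40, a transcriptional repressor of the clock, read 0.03, -0.03 and -0.02 in HT and -0.25, -0.23 and -0.21 in WT medium (0.22 ± 0.06), with controls at -0.56 to -0.39. Ccn2, a matricellular protein also driven by YAP, read 5.20, 5.30 and 5.32 in HT and 4.98, 5.02 and 5.17 in WT medium (0.22 ± 0.07). Id2, an inhibitor of helix-loop-helix factors, differed by 0.27 ± 0.09, and a dimmer probe of it by -0.01. The main probe of Id2 gave 0.32 on slide 1 and 0.13 on slide 2. The YAP and serum response factor list as a whole had a median of 0.01, with 5 of 35 higher (14.3%) and 1 lower without overlap, among them Nt5e, the ectonucleotidase CD73, at 0.22 ± 0.06.

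Genes of matrix breakdown had a median of 0.03, with 4 of 35 higher (11.4%) and 1 lower without overlap. Mmp13, a collagenase, read 0.13, -0.19 and 0.41 in HT and -0.34, -0.51 and -0.39 in WT medium, against -0.93 to -0.80 in control medium (0.53 ± 0.14). Mmp10, a stromelysin, differed by 0.43 ± 0.12 and Adam9, a membrane metalloprotease, by 0.21 ± 0.06. HT arrays of Mmp13 were all the highest of the 9, and its difference was 0.62 within slide 1 and 0.26 within slide 2. Mmp10 gave 0.46 and 0.25 there.

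Mesenchymal transition genes had a median of 0.01, with 12 of 21 above 0. Zeb2, a repressor of epithelial genes, was dim and differed by 0.47 ± 0.14, but by 0.15 within row 2 and by 0.09 with normexp. The intermediate filament gene Vim read 6.37, 6.36 and 6.24 in HT and 6.12, 6.16 and 6.24 in WT medium (0.15 ± 0.06), and S100a4, a calcium-binding protein of motile cells, differed by -0.22 ± 0.08. Epithelial and ductal genes had a median of 0.03, and the 95% interval lay within 1.5-fold for 27 of 27. Among them the tight junction genes Tjp1 and Ocln each differed by 0.22 ± 0.07, the epithelial cadherin Cdh1 by 0.07 ± 0.06, Epcam by 0.13 ± 0.08 and the ductal keratin Krt19 by -0.06 ± 0.09. By slide, Tjp1 gave 0.15 and 0.29, Cdh1 0.05 and 0.13 and Krt19 -0.14 and 0.06.

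Mucins and other secretory genes of gastric type had a median of 0.10, with 6 of 23 higher (26.1%) and 1 lower (4.35%) without overlap. The list median came to 0.14 when slide was blocked, 0.07 on slide 1 alone and 0.11 on slide 2 alone. Tff2, a trefoil peptide of the gastric mucosa, read 3.44, 3.14 and 3.30 in HT and 2.96, 2.66 and 2.76 in WT medium, against 4.38, 4.42 and 4.11 in control medium (0.50 ± 0.12). Its HT arrays lay between the other groups, and the difference was 0.46 when slide was blocked, 0.41 on slide 1 alone and 0.43 on slide 2 alone. Dmbt1, a secreted scavenger receptor of mucosal surfaces, read 0.18, 0.53 and 0.45 in HT and 0.03, -0.11 and -0.29 in WT medium, against 0.76 to 1.31 in control medium (0.51 ± 0.16). Dmbt1 gave 0.28 on slide 1 and 0.73 on slide 2.

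The gel-forming mucins Muc5ac and Muc5b, whose probes lie 54.1 kb apart on chromosome 7 (mm9), were low in both media. Muc5ac read -0.50, -0.16 and -0.31 in HT and -0.39, -0.51 and -0.85 in WT medium, with overlap, against 1.90, 1.69 and 1.51 in control medium. Its difference of 0.26 ± 0.15 (95% interval -0.08 to 0.61) was -0.02 within slide 1 and 0.52 within slide 2. Muc5b read -3.58, -3.65 and -3.70 in HT and -3.96, -3.83 and -4.43 in WT medium, without overlap, against -1.50 to -1.12 in control medium (0.43 ± 0.16). Against control, Muc5ac was at -2.28 in WT and -2.02 in HT medium, and Muc5b at -2.80 and -2.37. These offsets from control were called in both media by limma (highest adjusted p 0.00046), while the differences between the media were not (adjusted p = 0.984 for each).

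Drug metabolism and retinoid genes had a median of 0.13, with 5 of 32 higher (15.6%) and 3 lower (9.38%) without overlap, and 0.12 when slide was blocked, 0.13 on slide 1 alone and 0.05 on slide 2 alone. Aldh3a1, an aldehyde dehydrogenase, read 3.70, 3.76 and 3.57 in HT and 3.43, 3.35 and 3.44 in WT medium, against 3.97 to 4.03 in control medium (0.27 ± 0.07). Aldh3a1 gave 0.20 on slide 1 and 0.36 on slide 2. Aldh1a2, which makes retinoic acid, ran the other way, at -3.36, -3.44 and -3.44 in HT and -3.04, -3.12 and -2.95 in WT medium, against -4.09 to -3.63 in control medium (-0.38 ± 0.11). Gsta3, a glutathione transferase of the NRF2 list, read -0.77, -1.04 and -0.71 in HT and -1.18, -1.27 and -1.38 in WT medium (0.44 ± 0.10). It gave 0.44 on slide 1 and 0.29 on slide 2, and a dimmer probe of Gsta3 gave 0.09. That list as a whole had a median of 0.00.

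A further 3 genes also stood apart from control in both stellate media. Rhox5, an X-linked homeobox gene, read -0.37, -0.32 and -0.51 in HT and -0.45, -0.35 and -0.32 in WT medium, against -2.29 to -2.21 in control medium. The media differed by -0.03 ± 0.07 in Rhox5 (95% interval -0.19 to 0.13), while each stood 1.87 (WT) and 1.84 (HT) above control. Shh, the hedgehog ligand that epithelial cancer cells send to stroma, read -1.11, -1.28 and -1.03 in HT and -1.30, -1.42 and -1.42 in WT medium, against -0.17 to -0.08 in control medium (0.24 ± 0.08). Fgf1, a fibroblast growth factor, read 1.90, 1.80 and 1.85 in HT and 1.72, 1.59 and 1.63 in WT medium, against 2.36 to 2.41 in control medium (0.20 ± 0.06). Dimmer probes of Fgf1 gave 0.02 and 0.10, and Shh gave 0.23 on slide 1 and 0.13 on slide 2.

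**Figure D4:**
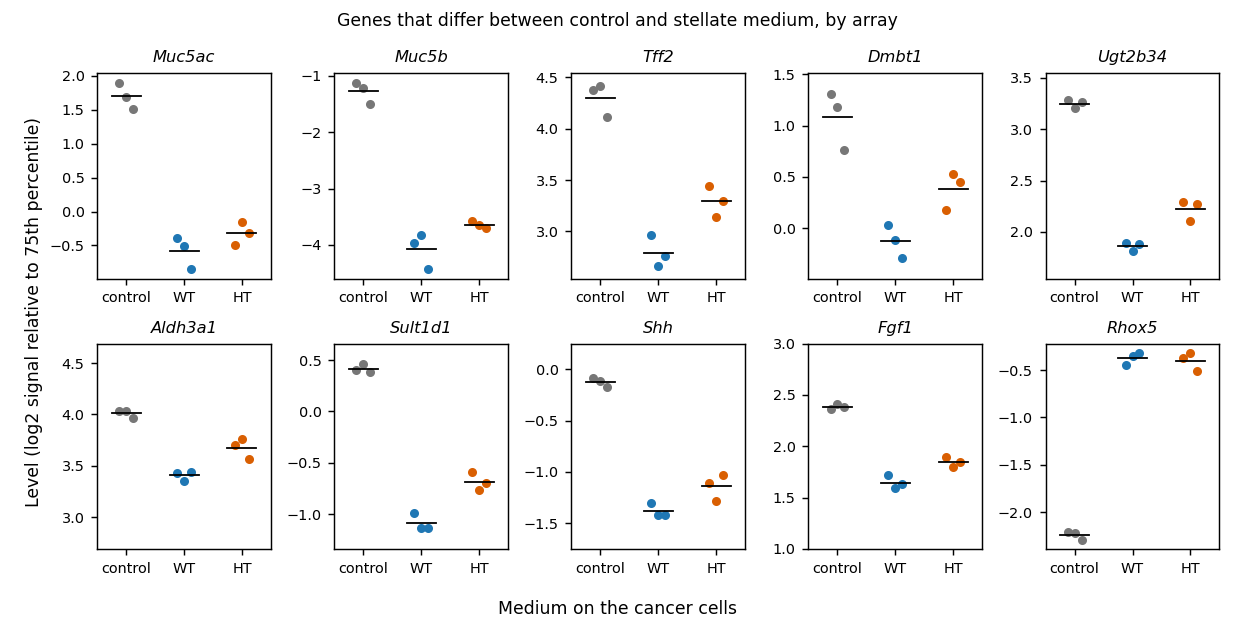
Level of 10 genes on each of the 3 arrays in control (grey), WT stellate (blue) and HT stellate medium (orange), in log2 signal relative to the 75th percentile, with a line at each group's mean and vertical axes that span at least 2 log2 units and differ between panels. Both stellate media stand apart from control in each panel. The HT arrays overlap the WT arrays for Muc5ac and Rhox5 and lie on the control side of them for the other 8 genes. The 10 genes were picked by small p between the media or for orientation, so this is no share over all genes that respond to stellate medium. Outside the figure, Mmp13 stood 0.44 above control in WT and 0.97 in HT medium, and Egr1 0.23 and 0.71.

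Genes of the cell cycle lay slightly on the other side. DNA replication genes had a median of -0.07, with 3 of 38 above 0 and 5 lower (13.2%) and 0 higher without overlap. Blocking on slide gave a list median of -0.06, and the slides taken singly gave -0.11 (slide 1) and -0.02 (slide 2), and the 95% interval lay within 1.5-fold for 36 of 38. Fen1, the flap endonuclease of lagging-strand synthesis, read 3.98, 4.10 and 4.06 in HT and 4.20, 4.19 and 4.33 in WT medium (-0.19 ± 0.08). E2f1, a transcription factor of S phase entry, differed by -0.17 ± 0.07 and the replication initiator Mcm10 by -0.15 ± 0.07. Mitosis genes had a median of -0.06 with 6 of 35 above 0, no member without overlap, and -0.12 within slide 1 against 0.05 within slide 2. Plk1, a mitotic kinase, differed by -0.17 ± 0.10 and Kif2c, a spindle kinesin, by -0.14 ± 0.08, and a dimmer probe of Kif2c by 0.00. The differences were larger on slide 1 than on slide 2, where HT array 2 is the only HT array. The slides gave -0.26 and -0.04 for Mcm10, -0.21 and -0.03 for Plk1, -0.26 and -0.03 for Kif2c and -0.22 and -0.14 for E2f1.

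Genes of cholesterol synthesis and uptake had a median of -0.07, with 8 of 28 above 0, 5 lower (17.9%) and 1 higher (3.57%) without overlap. The list median came to -0.06 when slide was blocked, -0.08 on slide 1 alone and -0.03 on slide 2 alone. Mvd and Mvk, both enzymes of the mevalonate pathway, read 3.26, 3.19 and 3.12 against 3.43, 3.30 and 3.48 for Mvd (-0.22 ± 0.08) and differed by -0.16 ± 0.07 for Mvk. Abcg1, a sterol exporter, ran the other way, at -3.37, -4.41 and -4.64 in HT and -4.91, -4.74 and -5.16 in WT medium (0.80 ± 0.30), with HT array 1 far above the rest of its group and 0.90 and 0.54 on the slides.

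ATF4 target genes of amino acid stress had a median of 0.07 and 30 of 37 members above 0, but only 1 higher and 1 lower without overlap (2.7% each). The median turned sign between the slides, at 0.12 within slide 1 and -0.06 within slide 2. On single arrays the median level of the list was 3.70, 3.42 and 3.75 in HT and 3.52, 3.52 and 3.51 in WT medium. HT array 2, the only HT array of slide 2, thus lay lowest. Cth, which makes cysteine, read 0.67, 0.26 and 0.75 in HT and 0.36, 0.13 and 0.03 in WT medium (0.39 ± 0.15), the cystine transporter Slc7a11 differed by 0.35 ± 0.17 and the folate enzyme Aldh1l2 by 0.29 ± 0.13. These, too, were larger on slide 1 than on slide 2, at 0.35 and 0.18 for Cth, 0.44 and 0.11 for Slc7a11 and 0.42 and 0.06 for Aldh1l2. Apoptosis regulators had a median of 0.08, with 5 of 32 higher (15.6%) and 0 lower without overlap. Among these Apaf1, the core of the apoptosome, differed by 0.33 ± 0.10, the inflammatory caspase Casp4 by 0.26 ± 0.08 and the BH3-only gene Hrk by 0.55 ± 0.19, the last with 0.87 within slide 1 and 0.11 within slide 2. Casp4 gave 0.44 and 0.06 on the slides and Apaf1 0.18 and 0.43, while dimmer probes of Apaf1 gave 0.03 and -0.07. Hrk was dim and gave 0.23 with normexp.

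Clock genes had a median of 0.10 with 16 of 17 above 0, 0.16 within slide 1 and -0.01 within slide 2. Interferon response genes had a median of 0.04 and MHC and antigen presentation genes 0.02, with beta-2 microglobulin, B2m, at 4.18, 4.04 and 4.14 in HT and 3.92, 3.87 and 3.97 in WT medium (0.20 ± 0.06). Unfolded protein response genes had a median of 0.03, with Edem1, a lectin that clears misfolded proteins, at 0.29 ± 0.07 and Wfs1, a channel protein of the endoplasmic reticulum, at -0.19 ± 0.07, while another probe of Edem1 gave -0.07. On slide 1 and slide 2, B2m gave 0.24 and 0.12, Edem1 0.14 and 0.41 and Wfs1 -0.08 and -0.26. Glycolysis and hypoxia genes had a median of 0.01, with the phosphofructokinase regulator Pfkfb4 at -0.24 ± 0.06 and Vegfa, the angiogenic growth factor, at 0.22 ± 0.10. Vegfa gave 0.26 on slide 1 and 0.10 on slide 2, and its other probes gave 0.19, 0.19 and -0.14. Lipid droplet and fatty acid genes had a median of -0.02, and Plin4, a perilipin at -1.72 against control in WT and -1.55 in HT medium, differed by 0.16 ± 0.07, with 0.23 on slide 1 and 0.04 on slide 2.

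Some lists were bounded closely. The 95% interval lay within 1.5-fold for all 49 ribosomal protein genes (median 0.01), all 36 of oxidative phosphorylation (median -0.03), all 35 of autophagy and lysosome (median 0.00) and all 35 of mitosis. Hedgehog genes had a median of 0.02, Notch genes -0.02, p53 targets 0.01, heat shock genes -0.04 and replication-dependent histones -0.07. Wnt genes, at 0.07, had 5 of 24 higher (20.8%) and 3 lower (12.5%) without overlap. Collagens and laminins (0.03), integrins, syndecans and galectins (0.01), endodermal transcription factors (0.03), EGFR, RAS and PI3K components (0.03), iron genes (0.04) and growth factors of FGF, PDGF, VEGF and IGF type (0.03) lay nearer to 0. Lgals1, galectin-1, was abundant and differed by -0.07 ± 0.09, with -0.08 on slide 1 and 0.00 on slide 2.

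**Figure D5:**
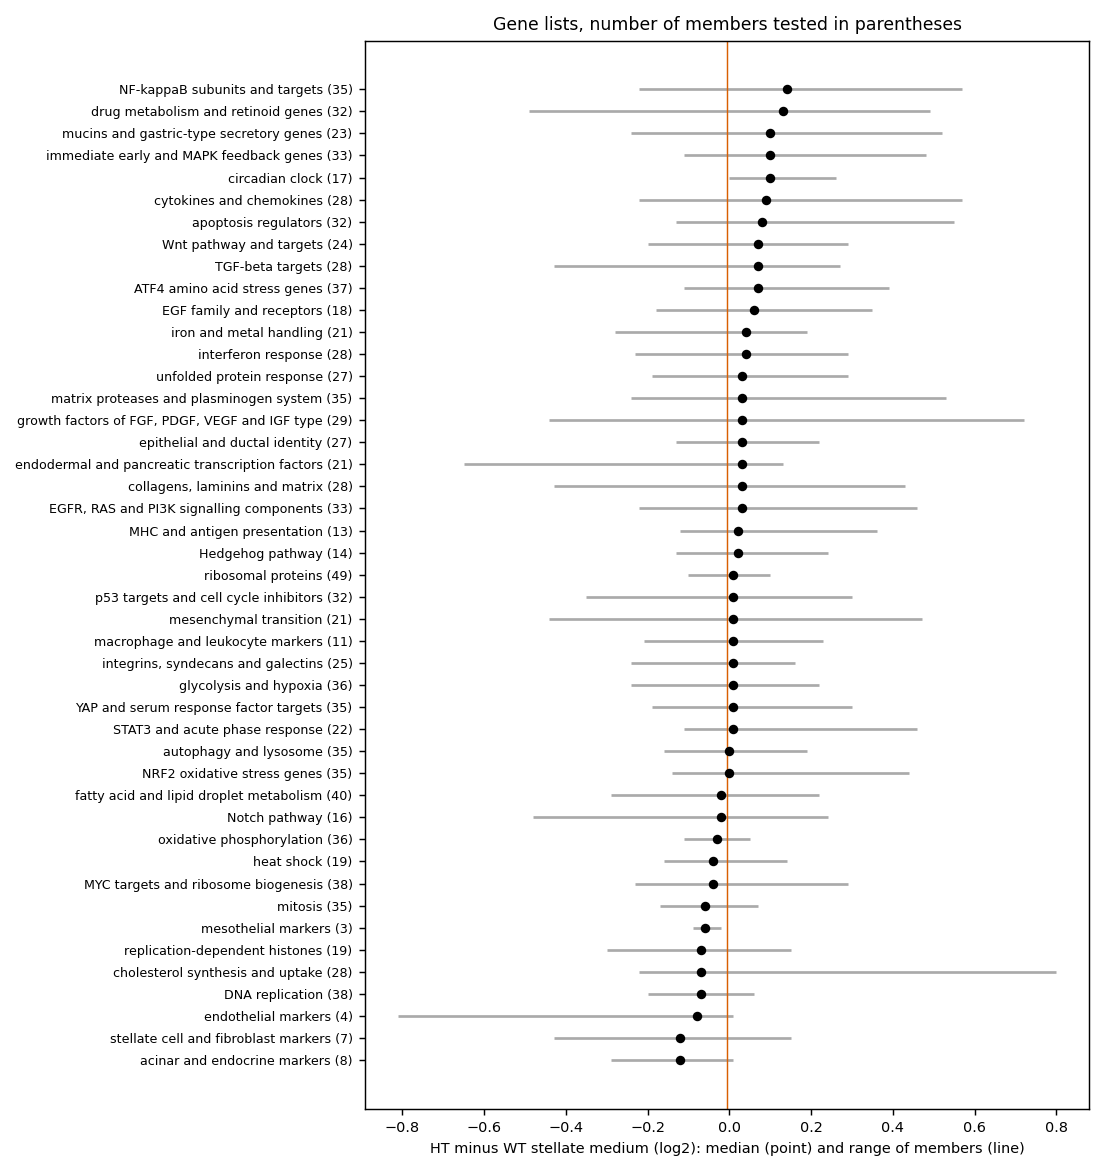
Median (point) and range (line) of the differences between HT and WT stellate medium (log2) over the tested members of each of the 45 lists, with the number of members in parentheses; the vertical line marks the median over all genes, -0.0048. Medians run from -0.12 to 0.14, with the NF-kappaB list at the top, and the ranges of nearly all lists cross 0.

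The arrays carried the epithelial signal that the label of cancer cells implies. All 8 epithelial markers examined were well above background on all 6 arrays. Of 8 stellate markers, Col1a1 and Acta2 were well above background on all 6, Col1a2 on 2 and Postn on 1, while Col3a1, Dcn, Lum and Pdgfrb were on none. Of 7 leukocyte markers Lyz2, Adgre1, Tyrobp and C1qa were on none either, while Csf1r, Cd68 and Ptprc were on all 6. Ptprc, the leukocyte antigen CD45, read 1.43 to 2.13 through its brightest probe, which gave signal on every array (-0.08 ± 0.23, with 0.10 on slide 1 and 0.01 on slide 2). None of its other probes met the signal filter of the test, so this level rests on 1 of 7 probes. Whether that signal comes from Ptprc transcripts was not tested. In such bulk samples, fewer cells of a type and less RNA per cell cannot be told apart.

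WT array 2 stood apart in some stromal genes. On it Col1a1, a type I collagen chain, read -2.85, against -4.14 to -3.98 on the other 5 compared arrays, and 13 of 28 stellate and fibroblast markers were well above background there, against 7 to 9 on the other 5 and 11 on control array 2. The endothelial marker Pecam1 read -2.90 on it and -4.98 to -4.56 on the other 5, with control array 2 at -4.21. The levels of the 28 markers were also summed, in multiples of the 75th percentile. That sum was 122.5, 124.7 and 131.8 on the WT arrays and 131.5, 134.1 and 121.7 on the HT arrays, with overlap. It is carried mainly by Vim (6.12 to 6.37 in log2) and Acta2 (4.15 to 4.52), so it cannot show a difference in dim markers such as Col1a1. The part of these stromal readings in the results was not tested. Without WT array 2 the difference in Col1a1 went from -0.43 ± 0.29 to -0.05, and the median of the stellate list from -0.12 to 0.08 (7 tested members). Col1a1 gave -0.08 on slide 1 and -0.55 on slide 2, which holds WT array 2. Acta2, smooth muscle actin, differed by -0.13 ± 0.10, with -0.20 and 0.02 on the slides and -0.46 by a dimmer probe. Of 81 genes recomputed without WT array 2, Ptprc turned sign (0.11) and no other did, with Krt25 at 3.58, Egr1 at 0.51 and Fbxo2 at -0.48, and the NF-kappaB median was 0.11. Genes whose HT and WT arrays did not overlap could not turn sign there.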

How the data were processed

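Total RNA of mouse pancreatic cancer cells was hybridised to 1-colour Cy3 Agilent arrays, per the labels' protocols. The deposited intensities are processed signals of Feature Extraction 10.7.3.1, corrected for spatial and multiplicative trends, with surrogate values in place of signals near background, per the file headers. The series matrix, as deposited by the authors, is on a log2 scale with scaling and centring not given in the sources used here; its cancer cell columns share a median of 6.898 and correlated at 0.997 to 0.998 with log2 mean signals, and it served as an alternative.

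Here log2 of the processed signal minus the 75th percentile of each array was used, without control and outlier spots. Spots of a probe were averaged and each gene was read from its brightest probe, judged on the 15 arrays together. A gene was tested if, in 1 or more of the 3 cancer cell groups, every array read it well above background; the test was made with limma 3.58.1 (R 4.3.3) over the 9 cancer cell arrays, adjusting by Benjamini-Hochberg at 0.05. The procedure was tested on simulated data. Clone, Rik, Gm, accession and other predicted names were tested but not named. Named genes were the 10 with the smallest p in each direction among the rest whose groups did not overlap, up to 3 members of each list by p, and 10 orientation genes. Members and lists were chosen with earlier results of these data known. Same-numbered WT and HT arrays deviated with correlations of 0.09, 0.25 and -0.25 (control and WT arrays 0.21, 0.25 and 0.22, control and HT arrays -0.14, 0.38 and 0.10), so the numbers were not used as pairs. The number of arrays limits the precision. The genome itself was not used here, so probes are placed by the files' mm9 coordinates without exon or UTR annotation.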

Additional observations from a re-analysis of the deposited data

How the results depend on the processing

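Of 26 alternatives, 11 called 0 genes, among them slide as a block (smallest adjusted p in limma 0.429) and the replicate block, which pairs arrays by number (0 genes, smallest adjusted p 0.0904). Krt25 was the 1 gene called with normexp background, median scaling, the 6 compared arrays alone, all 15 arrays, a trended robust fit and the series matrix values. A block on slide row called 3 genes (Krt25, Hmgcll1, Sox12), as did row 2 alone (Krt25, Lrrc23, AK052016), a choice made after seeing the data. Leaving out 1 array gave 0 to 6 genes, with Krt25 among them only without control array 3; counts were 4 without WT array 3, 4 without HT array 1 and 6 without HT array 3. At an unadjusted p of 0.05 there were 960 of 19687 genes (4.88%) and 87 of the 1093 genes in the lists (7.96%). The lists were chosen with earlier results of these data known, so their share is no independent result. The count over all genes tested was 1786 (9.07%) with a slide row block, 1617 within row 2, 637 with median scaling, 635 without WT array 3, 640 without HT array 3 and 468 within slide 1.

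Direction held in every alternative for 75 of the 81 genes recomputed, which are those the text describes by level or difference apart from Pecam1, the hair keratins and the chromosomal neighbours. For genes whose HT and WT arrays did not overlap, leaving out an array or taking 1 slide or row 2 alone could not turn the sign. The leading genes were picked for that non-overlap, so those alternatives are no check on their direction. List members were picked by p in this same comparison, which favours a kept sign. The share of all genes tested that kept their sign was not computed. Rhox5 went from -0.03 to 0.00 with a slide block and to 0.01 within either slide; Ptprc from -0.08 to 0.05 with a slide block, 0.16 with a slide row block, 0.10 within slide 1 and 0.01 within slide 2. Muc5ac gave -0.02 within slide 1, Krt19 0.06 and Acta2 0.02 within slide 2. With 1 array left out, Krt19 ran from -0.12 to 0.04, Rhox5 from -0.07 to 0.03, Lgals1 from -0.11 to 0.02 and Ptprc from -0.24 to 0.11. The cause was not tested. Of 45 list medians, 15 kept their sign throughout. Without a filter, 58.5% of genes were above 0, against 48.1%. Signal near background limits the genes with readings at the floor, Krt25 included. Several dim genes gave smaller differences with normexp and with the series matrix values. Among them were Egr2 at 0.22 and 0.24, Abcg1 at 0.35 and 0.38 and Muc5b at 0.21 and 0.24.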
